A study of Homo sapiens with 21 samples.

Results

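A total of 16 of the 23201 genes measured in TGFβ-treated HMLE cells were chosen for a short early response, a rise on day 1 (d1) of treatment that was gone by day 4 (d4). A gene was a member when its mean over the 3 d1 libraries was at least 50 normalized reads and at least 2 times the mean of untreated cells (d0), and its d4 mean was no more than 25% above the d0 mean. Membership was thus selected on the measured d0, d1 and d4 means. The members were *TERT*, *TUBB6*, *ANXA3*, *PPARD*, *AEN*, *ARHGEF3*, *TUBB2A*, *S1PR3*, *GLIPR1*, *LOC728643*, *GPR115*, *DPYSL3*, *SPTBN5*, *APLN*, *ANO7* and *LCP1*, and all 16 passed the filter on low values (a mean of at least 10 over all libraries), as did 13343 genes in all. They were 16 of 675 genes that met the d1 thresholds, and the other 659 stayed more than 25% above d0 on d4. Since the rule used d0, d1 and d4, the rise on d1 and the fall on d4 are given as descriptions with no test, and the later days (d7, d10, d15 and d20) carry the comparisons.

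HMLE is an established human mammary epithelial cell line that was immortalized with a retroviral human telomerase (hTERT) gene and the SV40 early region, and all groups share this background. The 7 groups were untreated cells (d0) and cells on days 1, 4, 7, 10, 15 and 20 of TGFβ induction, each with 3 libraries of total RNA that the study describes as biological triplicates. All cells were plated at an equal density, and untreated cells were sequenced only as d0, so days in culture and days of TGFβ cannot be told apart. No dose of TGFβ is given in the sources used here.

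Recovered totals lay between 18847917 and 22667754 reads per library. Pairs of libraries from a timepoint had a root mean square log2 difference between 0.214 and 0.243, except that the third d7 library was 0.472 and 0.457 away from the others of d7. Basal mammary markers (*KRT5*, *KRT14*, *KRT17*, *TP63*, *ITGA6*, *ITGB4*, *LAMB3*) were present at every timepoint, with a summed level between 309001 and 832084 normalized reads. *CDH1* and *KRT8* also stayed present throughout, with means of 7195 and 7955 on d0 and 2868 and 7818 on d20. *EPCAM* went from 2106 to 402 and *KRT18* from 7357 to 4872 between these days, while *KRT19* was at 289 and 347. The mean log2(value + 1) of 5 epithelial markers was 11.57 on d0 and 10.75 on d20, and that of 4 mesenchymal markers was 7.67 and 13.34. *PTPRC*, *CD3E*, *CDH5* and *HBB*, which define leukocytes, endothelial cells and red cells, had means of at most 0.677 normalized reads at each timepoint. Other markers of those cells were present, with means of up to 803 for *CD68*, 263 for *KDR*, 41.3 for *PECAM1*, 19.5 for *LYZ*, 8.74 for *VWF* and 5.48 for *HBA1*, as were the adipocyte markers *PLIN1* and *ADIPOQ* at up to 25.1 and 10.9. In bulk RNA a lower level can be fewer cells with the transcript or less of it per cell, and the 2 cannot be told apart.

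TGFβ is the best-known inducer of epithelial-to-mesenchymal transition (EMT), in which epithelial cells lose their junctions and gain motility and matrix. Its receptors act through SMAD factors within hours and through slower relays of newly made factors, and many early target genes are held in check by feedback inhibitors that the pathway itself induces. The 16 genes span several functions, among them tubulins and actin-binding proteins of the cytoskeleton, a secreted peptide and cell-surface receptors, a nuclear receptor, and membrane-binding proteins. None of them belongs to the lists of TGFβ feedback and direct targets, matrix, adhesion, AP-1 or cell-cycle genes examined beside them. In that order the lists hold 28, 33, 34 and 19 tested genes, and the cell-cycle lists 29 and 25, of 13343 tested in all. The lack of overlap therefore says little about the set.

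The starts of 3 genes are shown because they frame the set. *GPR115* stayed nearest to d0 on both d10 and d20, while *APLN* and *LCP1* had the largest d1 to d0 ratios and strong later swings. Each run is the 250 bases upstream of the RefSeq start (GRCh38.p14), printed on the gene's strand. Capitals mark matches to the motifs searched on both strands, which in *GPR115* are the AP-1 letters TGANTCA (at 2 places, the first 123 bases upstream) and the NF-Y letters CCAAT (205 bases upstream).
GPR115 (RefSeq ADGRF4), chr6:47698330-47698579, plus strand: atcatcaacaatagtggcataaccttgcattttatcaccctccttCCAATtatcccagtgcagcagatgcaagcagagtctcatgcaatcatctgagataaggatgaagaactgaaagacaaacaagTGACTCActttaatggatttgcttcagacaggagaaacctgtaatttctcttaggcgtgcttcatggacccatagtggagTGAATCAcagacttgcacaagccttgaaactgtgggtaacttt
APLN, chrX:129654957-129655206, minus strand: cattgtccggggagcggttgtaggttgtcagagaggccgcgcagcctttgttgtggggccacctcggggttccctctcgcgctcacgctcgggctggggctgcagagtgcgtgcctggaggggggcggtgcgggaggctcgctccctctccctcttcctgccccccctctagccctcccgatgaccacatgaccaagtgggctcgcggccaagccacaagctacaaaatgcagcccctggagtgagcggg
LCP1, chr13:46182178-46182427, minus strand: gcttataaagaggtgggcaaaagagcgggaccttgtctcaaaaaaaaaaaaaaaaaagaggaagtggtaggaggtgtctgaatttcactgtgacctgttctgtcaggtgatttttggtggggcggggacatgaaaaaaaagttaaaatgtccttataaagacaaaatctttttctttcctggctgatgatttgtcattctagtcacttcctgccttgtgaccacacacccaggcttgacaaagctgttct

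RefSeq windows were found for 13 of the 15 members looked up, with *GLIPR1* and *LOC728643* unmatched and *TERT* left out because its reads need not come from its own start in this line. *GPR115* was the 1 member with an AP-1 match, and 6.59% of 34943 windows of this length held one. The NF-Y letters CCAAT were found in windows of 5 members and in 32.0% of all windows, the TEAD letters GGAATG in 2 and 11.9%, the cell-cycle CHR letters TTTGAA in 2 and 13.4%, the E-box CACGTG in 1 and 6.32%, and the CArG box in 0 and 1.16%. Members with several starts had more windows to match than a single window, so their counts run high against these shares. A match is a stretch of letters and not a binding site.

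**Figure D1:**
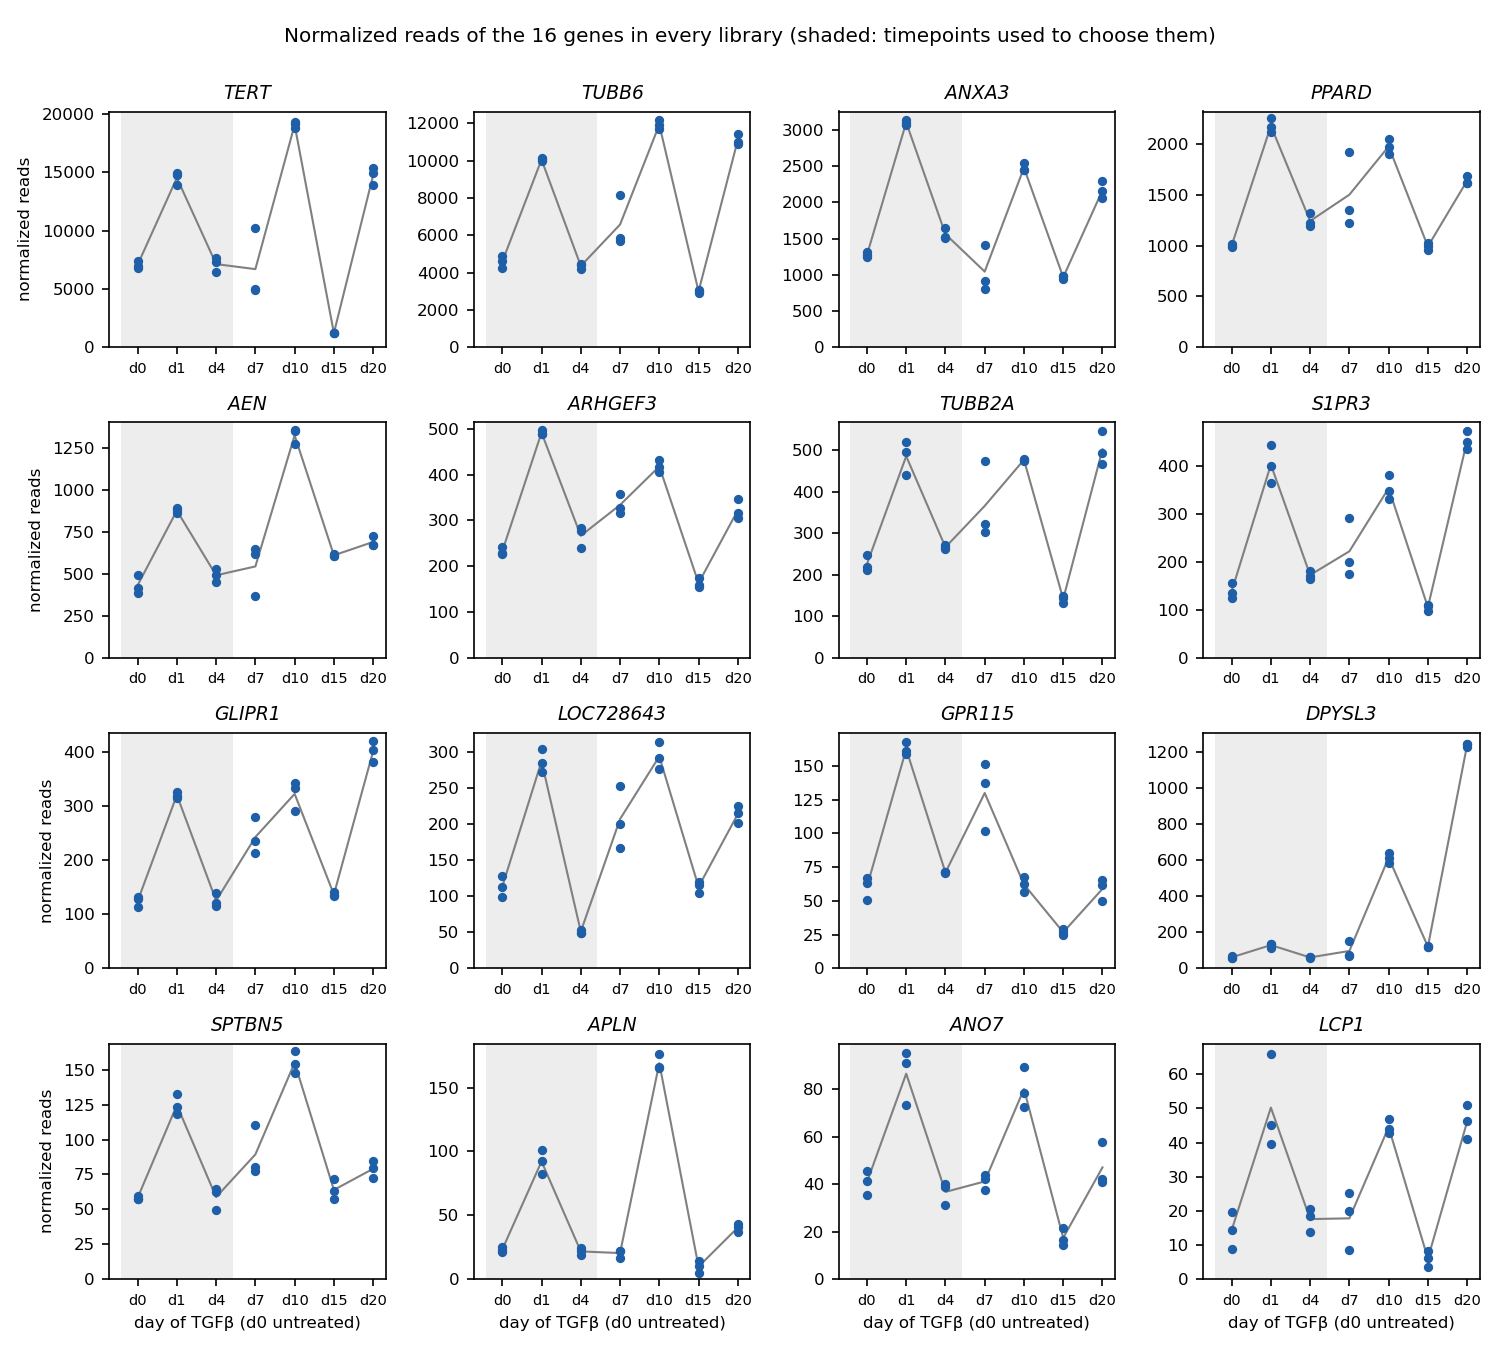
Normalized reads (vertical axis, from 0) of each of the 16 genes in every library over d0, d1, d4, d7, d10, d15 and d20, with points for libraries, a line through the timepoint means and shading over the 3 timepoints that chose the genes. Most panels show a second peak on d10, a trough on d15 and a further rise on d20, while *GPR115* has its later peak on d7.

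Over the 16 genes, the d1 mean was 2.03 to 3.97 times the d0 mean, with a median of 2.19, and the d4 mean ran from 0.45 times d0 in *LOC728643* to 24.8% above d0 in *S1PR3*. The smallest d1 ratios belonged to *AEN* (2.03), *TERT* (2.06) and *DPYSL3* (2.11), and the genes just outside that threshold were *PADI3* (1.98), *NRG1* (1.98) and *SH2B3* (1.97). At the d4 threshold, *S1PR3* (24.8% above d0), *PPARD* (24.4%) and *LCP1* (22.9%) lay just inside, and *C10orf25* (25.3%), *KIAA1161* (25.8%) and *RPE65* (25.98%) just outside. The lowest d1 means inside were those of *LCP1* (50.2), *ANO7* (86.6) and *APLN* (92.2 normalized reads), and *GPR3* (45.6), *SNORD17* (44.6) and *CXCR1* (44.0) fell just under. The set depended on the scaling of the libraries. After rescaling all libraries to a common total, the rule gave 15 genes, of which 6 were the same (*ANXA3*, *S1PR3*, *GLIPR1*, *LOC728643*, *GPR115* and *APLN*), and after quantile normalization 17, of which 13 were the same. When 1 of the 9 libraries of d0, d1 and d4 was left out in turn, 11 of the 16 were chosen every time.

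Most of the genes returned on d10, and fewer did so on d20. On d10, 11 of the 16 were higher than on d0 (limma, adjusted p under 0.05 and at least 2-fold), namely *AEN*, *APLN*, *DPYSL3*, *GLIPR1*, *LCP1*, *LOC728643*, *S1PR3*, *SPTBN5*, *TERT*, *TUBB2A* and *TUBB6*, where 6.94% of all genes tested were called. On d20, 7 were higher (*DPYSL3*, *GLIPR1*, *LCP1*, *S1PR3*, *TERT*, *TUBB2A* and *TUBB6*), against 7.51% of all genes. The d0 libraries both chose the genes and served as the base of these comparisons, and the d10 and d20 comparisons share them, so the counts are not independent of the rule or of each other. Of the 659 other genes up on d1, which did not come down to d0 on d4, 568 (86.2%) were higher on d10 and 521 (79.1%) on d20. The median log2 fold change of the 16 genes was 1.37 on d10 and 0.85 on d20, beside 1.61 and 1.58 for those 659 and 0.03 and 0 for all genes.

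Without a minimum fold, 15 members were higher on d10 (37% of all genes) and 14 on d20 (32.5%). *ANXA3*, *PPARD*, *ARHGEF3* and *ANO7* were among them on d10 with means of 1.95, 1.98, 1.80 and 1.96 times d0, close under the 2-fold limit. *ANO7* passed it without the first d0 library (log2 fold change 1.03) or the third d10 library (1.03), and *PPARD* without the first d10 library (1.01). *LOC728643*, at 1.89 times d0 on d20, passed it without the second d0 library (1.01). No member was lower than d0 on d10 (7.34% of all genes) or on d20 (4.72%), where limma gave 0 at an unadjusted p under 0.05 and edgeR and DESeq2 gave 0 calls. With libraries rescaled to the same total, which left the median gene at a log2 fold change of -0.20 on both d10 and d20, *TUBB2A* on d10 (0.85) and *TUBB2A* (0.95) and *TERT* (0.86) on d20 fell under the 2-fold limit and *TERT* did so on d20 under quantile normalization (0.93).

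**Figure D2:**
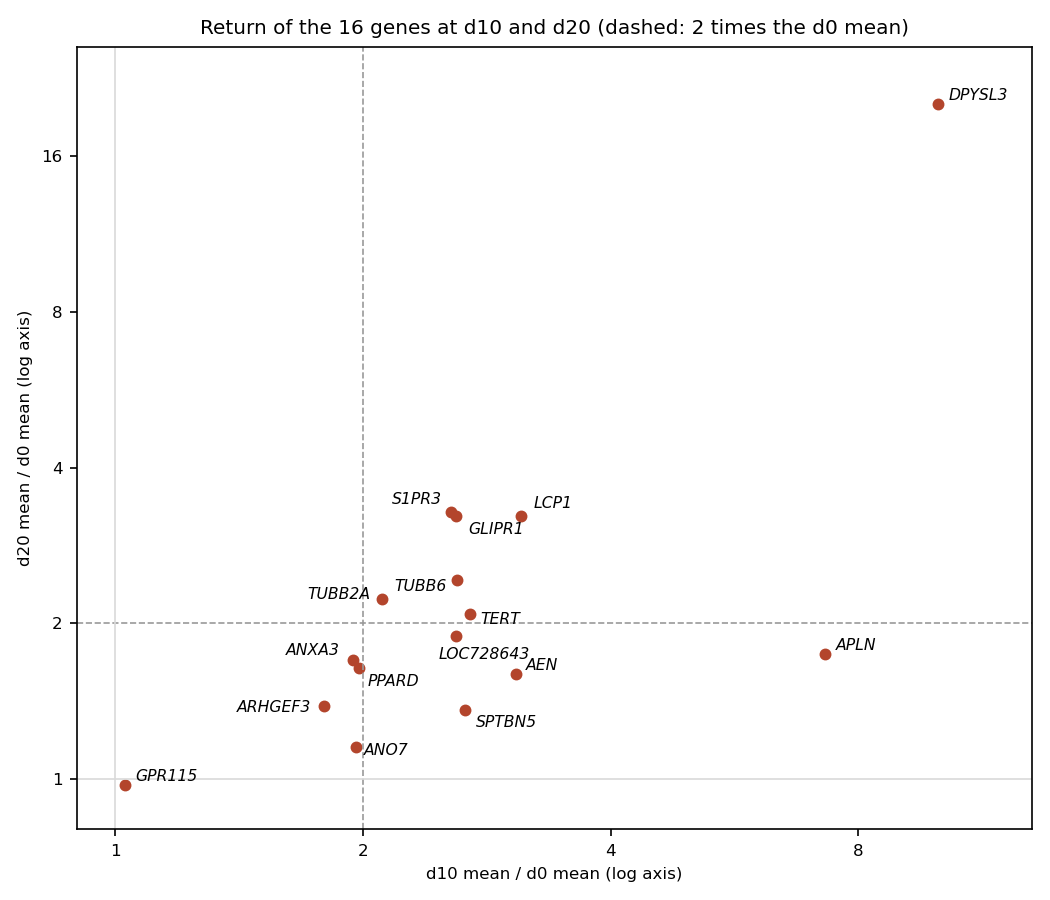
Ratio of the d10 mean (horizontal, log axis) and the d20 mean (vertical, log axis) to the d0 mean for each of the 16 genes, 1 point per gene, with dashed lines at 2 times d0. *DPYSL3* lies at 9.99 and 20.2, *APLN* at 7.29 and 1.74, and *GPR115* at 1.03 and 0.97. Both axes share the d0 mean, so the position of a gene along the diagonal is partly set by it.

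Between the 2 returns, the genes fell back. On d15, 15 of the 16 (all but *PPARD*) were lower than on d10, where 10.2% of all genes were, and *PPARD* was lower by less than 2-fold (log2 fold change -0.99 ± 0.10 SE, limma, adjusted p = 5.093e-09). Neither timepoint was used to choose the genes. The members' median log2 fold change was -1.55, against -0.35 in the 659 other genes up on d1, of which 169 (25.6%) were called lower, and -0.01 in all genes. No member was higher on d15 than on d10 (12% of all genes), with 0 at an unadjusted p under 0.05 in limma and 0 calls by edgeR and by DESeq2. Of the 4 later timepoints, d15 had the lowest mean for 14 of the 16 genes, as for 36.8% of all genes tested, and d7 for *AEN* and *DPYSL3*, as for 14.5%.

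The median log2 fold change was 0.84 in the step from d7 to d10 and 1.47 in the step from d15 to d20. On d10, 6 genes were higher than on d7 (*AEN*, *ANXA3*, *APLN*, *DPYSL3*, *LCP1* and *TERT*, against 3.63% of all genes), 15 were higher without a minimum fold (36.2% of all genes), and *GPR115* alone was lower (9.09% of all genes). The call of *GPR115* (-1.03 ± 0.15) was lost without the first or second d7 library or the second d10 library, and without the third d7 library 7 genes were higher, *TUBB6* being added. With each library left out in turn, the count of higher genes ran from 5 to 7. On d20, 11 genes were higher than on d15 (*ANO7*, *ANXA3*, *APLN*, *DPYSL3*, *GLIPR1*, *GPR115*, *LCP1*, *S1PR3*, *TERT*, *TUBB2A* and *TUBB6*), against 7.55% of all genes. None was lower on d20 than on d15 (7.43% of all genes), with 0 at an unadjusted p under 0.05 in limma and 0 calls by edgeR and by DESeq2. These steps share the d10 and d15 libraries.

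Set against the libraries of d7 and d15 together, those of d10 and d20 were higher for 9 of the 16 genes (*ANO7*, *ANXA3*, *APLN*, *DPYSL3*, *LCP1*, *S1PR3*, *TERT*, *TUBB2A* and *TUBB6*), where 4.74% of all genes were. Without a minimum fold 15 were higher, all but *GPR115*, against 40.5%. The median log2 difference was 1.14 in the members, 0.27 in the 659 other genes up on d1, of which 136 (20.6%) were called higher, and 0.01 in all genes. No member was lower (7.52% of all genes, 0 at an unadjusted p under 0.05 in limma, 0 calls by edgeR and DESeq2). This grouping of days was made with earlier results of these data known, so it is not an independent test of the pattern. *GLIPR1* lay just under the limit (0.98 ± 0.07), and passed it without the third d7 library (1.03) or the second d10 library (1.02), and also under quantile normalization (1.06), while *ANO7* lost its call with a pseudocount of 10 (0.94).

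**Figure D3:**
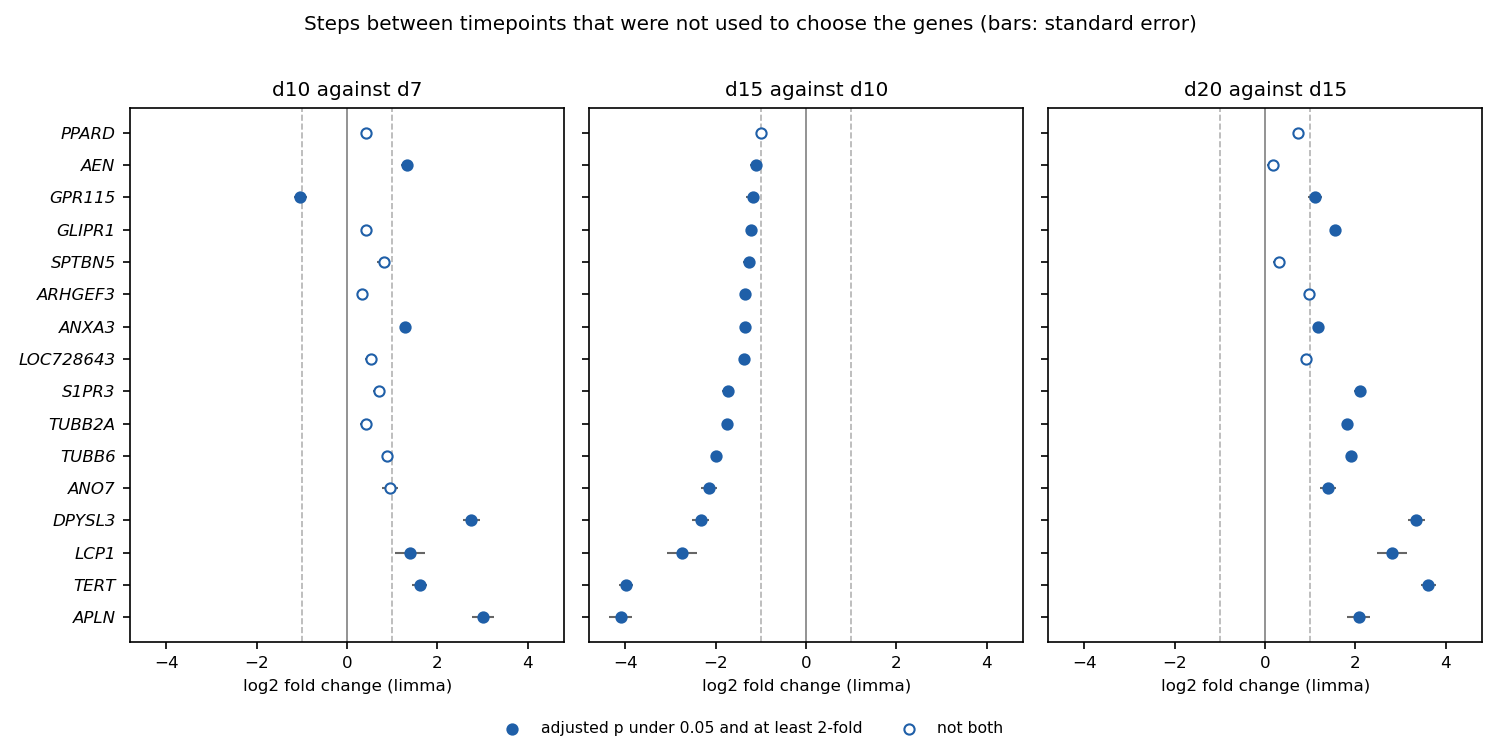
Log2 fold change (horizontal axis, limma) of the 16 genes in the steps from d7 to d10, d10 to d15 and d15 to d20, with standard errors as bars, dashed lines at 2-fold and filled points for calls. In the middle panel all 16 points lie below 0 and 15 are filled, and in the right panel all lie above 0 and 11 are filled.

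Against untreated cells, most members were higher on d7 by less than 2-fold. The d0 libraries that chose the genes are also the base of the d7 and d15 comparisons. These counts are therefore not independent of the rule or of each other. The median log2 fold change was 0.53, and 10 of the 16 were higher without a minimum fold (34.6% of all genes), with *GLIPR1* at 1.95 and *LOC728643* at 1.83 times d0. The d7 libraries were uneven. Relative to d0, the mean log2(value + 1) over the 16 genes was 0.24, 0.34 and 0.69, highest in the third library. At 2-fold *GPR115* alone was higher (8.79% of all genes), a call lost without the first d0 library, and 0 members were lower (2.93% of all genes), *ANXA3* being the 1 gene with an unadjusted p under 0.05 in limma, and the 1 lower without a minimum fold (32.6% of all genes), while edgeR and DESeq2 gave 0 calls. On d15, 5 genes were lower than on d0 (*ANO7*, *APLN*, *GPR115*, *LCP1* and *TERT*, against 8.66% of all genes), and 3 without the second d15 library, which ended the calls of *APLN* and *LCP1*. Without a minimum fold 10 were lower on d15 (37.3% of all genes) and 2, *AEN* and *DPYSL3*, were higher (39.2%). No gene was higher on d15 at 2-fold (11.7% of all genes). *AEN* and *DPYSL3* had an unadjusted p under 0.05 in limma, edgeR and DESeq2 gave 0 calls, and *DPYSL3* passed without the third d0 library. Among the 659 other genes up on d1, 440 (66.8%) were higher and 10 (1.52%) lower on d15 than on d0.

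*TUBB6* encodes a beta-tubulin, a building block of microtubules. Its libraries read 4247, 4624 and 4883 normalized reads on d0, 10076, 9957 and 10137 on d1 and 4171, 4470 and 4418 on d4. They then read 5854, 5706 and 8160 on d7, 12175, 11917 and 11701 on d10, 3033, 2892 and 3038 on d15 and 11413, 11008 and 10910 on d20. The d1, d10 and d20 libraries lay above all those of the other 4 timepoints, with no overlap. The log2 fold change was -2.00 ± 0.08 from d10 to d15 (limma, adjusted p = 6.752e-15) and 1.90 ± 0.08 from d15 to d20 (adjusted p = 3.013e-14).

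*TUBB2A*, a closely related beta-tubulin, moved alongside at 226 ± 18.9 (SD, n = 3) on d0, 486 ± 40.8 on d1, 266 ± 4.66 on d4, 366 ± 93.9 on d7, 477 ± 2.36 on d10, 142 ± 8.11 on d15 and 502 ± 40.8 on d20. Reads of *TUBB2A* and *TUBB2B* can be shared, since the genes are near copies. Tubulin genes outside the set, a list made after the members were seen, were mostly higher on d10 and d20 than on d7 and d15 too: of 12 tested, 7 were higher at 2-fold and 0 lower, with a median log2 difference of 1.04, and *TUBG2* alone was lower without a minimum fold (-0.32 ± 0.05). *TUBA1B* had means of 20277 ± 527 on d0 and 26462 ± 631 on d1, and went from 29408 ± 370 on d10 to 6128 ± 215 on d15 and 26014 ± 256 on d20.

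*DPYSL3* (CRMP4), a member of the collapsin response mediator family that binds actin and microtubules in growing neurites, had the largest ratios to d0 on d10 and d20. Its values were 59.6, 57.7 and 67.3 normalized reads on d0, 138, 115 and 136 on d1, and 63.1, 59.4 and 60.7 on d4. They were 66.5, 73.0 and 152 on d7, 644, 586 and 615 on d10, 117, 119 and 126 on d15, and 1245, 1249 and 1230 on d20. The late peaks were thus well above the d1 peak, and no d10 or d20 library overlapped any other timepoint. From d10 to d15 the log2 fold change was -2.34 ± 0.18 (limma, adjusted p = 1.609e-10) and from d15 to d20 3.35 ± 0.18 (adjusted p = 9.092e-13). Its relatives *DPYSL2* and *CRMP1* went another way in that step from d10 to d15. Their d15 means of 2435 ± 151 and 217 ± 35.1 were above their d10 means of 1677 ± 47.6 and 145 ± 5.79. Against d0, however, *CRMP1* was also higher at 2-fold on d10 (log2 fold change 1.006 ± 0.133) and d20 (1.247 ± 0.133). *DPYSL2* was higher than d0 on both days by less than 2-fold (0.398 ± 0.062 and 0.435 ± 0.062).

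*LCP1* (L-plastin) bundles actin and is known from leukocytes. It was read at 19.6, 14.4 and 8.90 normalized reads on d0, 65.9, 45.1 and 39.7 on d1, and 13.7, 20.45 and 18.6 on d4. Later it was at 8.44, 19.8 and 25.1 on d7, 46.8, 42.8 and 44.0 on d10, 6.12, 3.62 and 8.29 on d15, and 50.9, 46.3 and 41.1 on d20. The d1, d10 and d20 libraries overlapped each other and none of the rest. Of the leukocyte markers given here, *PTPRC* and *CD3E* were at or near 0 at every timepoint, *LYZ* had means of 13.8 ± 3.59 on d10, 16.5 ± 5.73 on d15 and 19.5 ± 3.41 on d20, and *CD68*, which other cells also express, had 380 ± 33.2, 753 ± 26.2 and 648 ± 22.1. Which cells the *LCP1* reads came from was not tested. The plastins *PLS3* and *PLS1* were higher on d10 and d20 than on d7 and d15 by 0.24 ± 0.03 and 0.75 ± 0.05 on the log2 scale (limma, adjusted p = 6.918e-08 and 7.751e-12), less than 2-fold.

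*ARHGEF3*, an exchange factor that activates RhoA, and *SPTBN5*, a beta-spectrin of the membrane skeleton, had smaller returns. *ARHGEF3* went from 233 ± 8.88 on d0 to 492 ± 4.96 on d1 and 266 ± 24.1 on d4, and was at 334 ± 21.4, 418 ± 12.6, 163 ± 10.2 and 322 ± 20.96 on d7, d10, d15 and d20. Its highest later level, on d10, stayed below the d1 level in every library. *SPTBN5* read 58.2 ± 1.22 on d0, 125 ± 7.54 on d1 and 58.8 ± 8.14 on d4, then 155 ± 7.78 on d10 but 63.9 ± 7.19 on d15 and 79.1 ± 6.22 on d20, so that its return was mostly on d10. The step from d15 to d20 was 0.31 ± 0.14 (limma, adjusted p = 0.04638).

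Of the signalling genes, *APLN*, which encodes the secreted peptide apelin, had the sharpest d10 return. Its 3 libraries stood at 21.4, 25.5 and 22.8 normalized reads on d0, 82.6, 102 and 92.3 on d1, and 22.1, 18.5 and 24.5 on d4. They stood at 16.9, 21.9 and 22.3 on d7, 165, 166 and 176 on d10, 10.2, 4.52 and 14.5 on d15, and 37.1, 41.1 and 43.1 on d20. No d10 library overlapped any other timepoint, and the d20 libraries lay between d0 and d1. The log2 fold change was 3.00 ± 0.25 from d7 to d10 and -4.11 ± 0.25 from d10 to d15 (limma, adjusted p = 9.647e-10 and 2.09e-12), with the low d15 values resting on few reads. Transcripts of its receptor gene *APLNR* had means of at most 0.63 at every timepoint. Apelin is also known from endothelial cells. Of the 4 endothelial markers, summing to 22.9 to 23.5 on d10 and 268 to 290 on d15, *KDR* had means of 2.94 and 263, while *PECAM1* was at 14.7 and 9.06, *VWF* at 5.24 and 6.98 and *CDH5* at 0.33 and 0.30.

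*S1PR3*, a receptor for the lipid sphingosine-1-phosphate (S1P), was read at 125, 134 and 155 on d0, 401, 364 and 444 on d1, and 165, 171 and 181 on d4. Its later libraries gave 200.51, 174 and 291 on d7, 347, 382 and 331 on d10, 108, 97.7 and 111 on d15, and 450, 473 and 436 on d20. The d15 libraries were the lowest of the course and did not overlap d0. Of 8 tested genes of the S1P pathway, listed after the members were seen, 1 was higher on d10 and d20 than on d7 and d15 at 2-fold, the kinase gene *SPHK1* whose product makes S1P (1.43 ± 0.10), and 1 was lower, the phosphatase gene *SGPP2* (-2.78 ± 0.15). *SPHK1* means were 402 ± 28.7 on d0, 4568 ± 146 on d1, 3139 ± 145 on d4, 2320 ± 919 on d7, 5278 ± 35.5 on d10, 1421 ± 16.8 on d15 and 4307 ± 255 on d20, and on d15 it was above d0 where *S1PR3* was below. The receptor genes *S1PR2* and *S1PR5* went down (-0.75 ± 0.11 and -0.97 ± 0.06) and *S1PR1* went up (0.64 ± 0.13) in the same comparison, all under 2-fold.

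*GPR115* (*ADGRF4*), an adhesion G protein-coupled receptor of epithelia, alone was not called higher than d0 on d10 without a minimum fold. On d20 neither *GPR115* nor *ANO7* was. *GPR115* read 50.7, 63.6 and 67.3 on d0, 167, 159 and 161 on d1, and 71.5, 71.1 and 70.5 on d4. It came back on d7 instead, at 137, 151 and 101, and then read 67.7, 56.4 and 62.6 on d10, 24.5, 28.9 and 26.9 on d15, and 49.8, 65.3 and 61.7 on d20. The d10 and d20 libraries overlapped those of d0, and the log2 fold changes to d0 were 0.04 ± 0.15 and -0.04 ± 0.15 (limma, adjusted p = 0.799 and 0.8366), the sign of each turning under other settings.

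*PPARD*, a nuclear receptor for fatty acids, had the shallowest course after d1. It was at 999 ± 12.5 on d0, 2180 ± 71.1 on d1, 1243 ± 66.4 on d4, 1502 ± 372 on d7, 1977 ± 74.5 on d10, 992 ± 37.3 on d15 and 1640 ± 37.3 on d20. The third d7 library, at 1925, lay within the range of the d10 libraries. The related *PPARA* was higher on d15 (1637 ± 57.7) than on d10 (597 ± 11.8), and *PPARG* had means of at most 6.32.

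*TERT*, the catalytic subunit of telomerase, was read at 6824, 6959 and 7407 on d0, 14732, 13901 and 14929 on d1, and 6411, 7269 and 7682 on d4, then at 4873, 4949 and 10243 on d7, 19307, 19111 and 18788 on d10, 1173, 1213 and 1219 on d15, and 15364, 14960 and 13911 on d20. HMLE cells carry hTERT as a transgene, and the deposited values do not tell its reads from those of the endogenous gene. *ANXA3*, a calcium-dependent membrane-binding annexin, was at 1275 ± 33.3 on d0, 3106 ± 32.3 on d1 and 1561 ± 72.4 on d4, and at 2480 ± 57.5 on d10, 966 ± 20.4 on d15 and 2169 ± 120 on d20.

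Among the remaining genes, *AEN*, a nuclease gene known as a p53 target, was highest on d10. Its libraries read 416, 385 and 497 on d0, 863, 892 and 879 on d1, 452, 532 and 493 on d4, 651, 618 and 366 on d7, 1356, 1274 and 1351 on d10, 619, 607 and 608 on d15, and 675, 727 and 671 on d20. From d15 to d20 it differed by 0.18 ± 0.14 (limma, adjusted p = 0.2486), so a second return was not detected. *GLIPR1*, which encodes a secreted or membrane-bound CAP-domain protein, rose further on d20 (401 ± 19.8) than on d1 (320 ± 5.39), from 124 ± 9.23 on d0, 125 ± 12.6 on d4 and 136 ± 3.96 on d15.

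*ANO7*, of the anoctamin family of ion channels and lipid scramblases, was at 40.9 ± 4.92 on d0, 86.6 ± 11.7 on d1, 36.7 ± 4.72 on d4, 80.1 ± 8.62 on d10, 17.4 ± 3.59 on d15 and 47.1 ± 9.29 on d20. Its log2 fold change from d0 to d20 was 0.19 ± 0.175 (SE, limma, adjusted p = 0.3564), so a return on d20 was not detected. *LOC728643* (RefSeq *HNRNPA1P33*) is a transcribed pseudogene of *HNRNPA1*, whose reads it can share, and is therefore uncertain. It went from 113 ± 14.7 on d0 to 287 ± 16.5 on d1 and to 51.0 ± 2.49 on d4, below d0, and was at 293 ± 18.5 on d10 and 113 ± 7.55 on d15. *HNRNPA1* itself had means of 3609 ± 106 on d0, 2875 ± 27.2 on d1, 2677 ± 40.1 on d4 and 2570 ± 43.8 on d15, and did not follow that pattern.

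Cell-cycle lists had their lowest levels on d15, as did 11 of the 16 genes and 25.9% of all genes tested. The d1 rise and d4 fall of the 16 genes were set by the rule, so those days cannot set them apart from these lists. A mean of log2(value + 1) over the 16 genes, relative to d0, was 1.27 on d1, 0.04 on d4, 0.42 on d7, 1.41 on d10, -0.51 on d15 and 1.11 on d20. The same mean over 29 S phase and replication genes was 0.05 on d1, -0.97 on d4, -0.73 on d7, 0.19 on d10, -2.12 on d15 and -0.22 on d20, and over 25 G2 and mitosis genes -0.34, -0.65, -0.41, -0.17, -1.53 and 0.02. Higher on d10 and d20 than on d7 and d15 were 21 of the 29 S phase genes and 10 of the 25 mitosis genes, with median log2 differences of 1.42 and 0.93 and 0 lower in each list. Their part in the result was not tested.

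**Figure D4:**
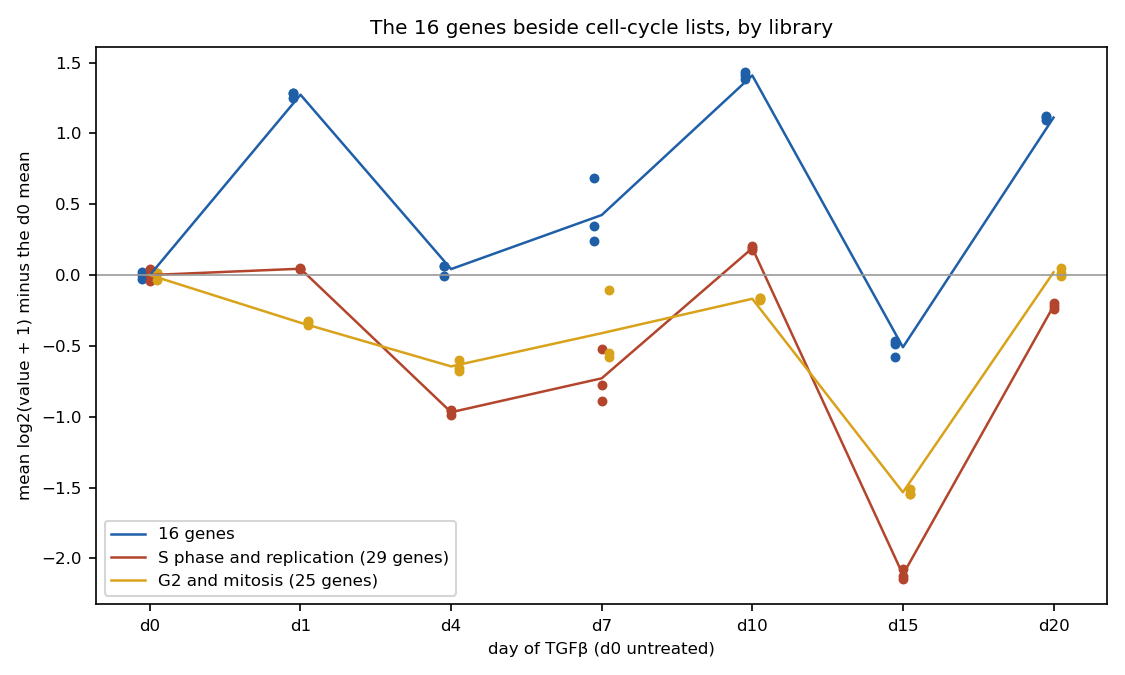
Mean log2(value + 1) relative to the d0 mean (vertical axis) of the 16 genes, 29 S phase and replication genes and 25 G2 and mitosis genes at each timepoint, with points for libraries and lines through the means. All 3 lines dip on d15, while on d1 only the line of the 16 genes lies well above 0, at 1.27. The levels of the 16 genes on d0, d1 and d4 were set by the rule.

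Lists made for the TGFβ response gave other counts. Of 28 tested genes of TGFβ feedback and direct SMAD targets, 16 were higher than d0 on d10 and 21 on d20, but 1 was higher and 6 lower on d10 and d20 than on d7 and d15, with a median log2 difference of -0.34. Of 34 actin, integrin and adhesion genes, 19 were higher on d10 and 21 on d20, and 3 were higher and 1 lower in the comparison with d7 and d15, with a median of 0.23. AP-1 and immediate early genes, 19 tested, had 1 higher and 6 lower there, and YAP and TEAD targets, 25 tested, had 1 higher and 0 lower. Of 29 genes of ERK output and feedback, 11 were higher and 3 lower, with a median of 0.75. Lists of other functions also differed in this comparison. Nucleolar and ribosome biogenesis genes, 29 tested, had 8 higher and 0 lower, with a median of 0.84. Keratins and epidermal differentiation genes, 24 tested, had 1 higher and 8 lower, with a median of -0.83.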

How the data were processed

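The 21 RNA-seq libraries of HMLE cells cover 7 timepoints. The authors deposited a normalized read signal per gene symbol, in which reads are divided by a size factor of the library and given to 2 decimals, and whole reads were recovered for 100% of values. The submitters' processing notes name hg19, STAR 2.7 and Salmon 1.4. Columns carry no replicate numbers, so libraries are numbered in column order as names only.

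The members, the gene lists and the grouping of d10 and d20 against d7 and d15 were chosen with earlier results of these data known. The family lists were made after the members were seen. Genes with a mean of at least 10 (13343) were tested on log2(value + 1) by limma 3.58.1 (R 4.3.3, trend), with 1 mean per timepoint in 1 fit over 7 timepoints, in 8 contrasts, and Benjamini-Hochberg adjustment over all genes within each. A call needed an adjusted p below 0.05 together with a change of 2-fold or more. Fold changes are on the log2(value + 1) scale, which understates those of low genes. Ratios of means use the values themselves. Each p-value sets a difference against the spread between libraries within timepoints. That spread is estimated over all 7 timepoints together, so the third d7 library enters it in every contrast.

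Genes were named as the members with the highest levels or with the largest or smallest ratios on d1, d7, d10, d15 and d20, those in a list, those with a printed sequence, and the genes at each threshold. Other genes were named after their values were seen. Alternatives were a pseudocount of 10, no filter (19546 genes), rescaling to the same total, quantile normalization, edgeR 4.0.16 and DESeq2 1.42.0 on recovered reads, a fit of only the timepoints compared, no minimum fold, other thresholds of the rule, and each library left out. Scripts were tested on simulated data. Figures were drawn with matplotlib 3.10.9. A marker gene is not reported here.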

Additional observations from a re-analysis of the deposited data

Results flagged for a closer look

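For 3 genes the d10 and d15 levels departed from d0 in opposite directions by at least 2-fold each. The direct comparison of d15 with d10 passed the test in each of them (limma, adjusted p). The d0 libraries also chose the genes, so the departures from d0 are not independent of the rule. The d15 minus d10 difference on the log2 scale was -3.99 ± 0.16 (SE) for *TERT*, from 1.43 on d10 and -2.55 on d15 (adjusted p = 4.746e-15). For *APLN* it was -4.11 ± 0.25, from 2.82 and -1.29 (adjusted p = 2.09e-12). For *LCP1* it was -2.76 ± 0.33, from 1.63 and -1.12 (adjusted p = 1.559e-07). The *TERT* values do not tell reads of the hTERT transgene from those of the endogenous gene. Without the second d15 library, *APLN* and *LCP1* no longer passed the 2-fold limit on d15 against d0. With a pseudocount of 10, the members called lower on d15 than on d0 fell from 5 to 1. At most 1 of these 3 genes therefore kept its d15 call under that setting. The cause was not tested.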

How the results depend on the processing

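No paired analysis was possible because no replicate number is given for any column. Of 252 alternative counts of members over 17 counts, 229 were within 1.5 times the reported count and 23 were not. The 16 genes became 5 with d4 at most 1 times d0, 46 with 1.5 times, 2 with d1 at least 3 times d0 and 29 with a d1 mean of at least 10, and 14 to 22 when a library was left out. Without a minimum fold, genes higher than d0 numbered 10 on d7 (34.6% of all genes), 2 on d15 (39.2%) and 14 on d20 (32.5%), and lower ones 1 on d7 (32.6%) and 10 on d15 (37.3%), while 15 were higher on d10 and d20 than on d7 and d15 (40.5%) and 15 on d10 than on d7 (36.2%). With a pseudocount of 10, the genes higher on d7 than d0 fell to 0, those lower on d15 than d0 to 1 and those lower on d10 than d7 to 0. Genes higher on d7 than d0 were 0 also after rescaling to the same total and after quantile normalization, and those lower on d10 than d7 were 0 after quantile normalization. Leaving out a library gave 0 to 1 gene higher on d7 than d0, 0 to 1 higher and 3 to 5 lower on d15 than d0, and 0 to 1 lower on d10 than d7.

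Of 720 alternative log2 fold changes of single genes over 48, 696 kept their direction and side of the threshold, 8 newly passed it, 5 no longer did and 11 changed sign. The sign changes were in *GPR115* and *ANO7*, both near 0 there. *GPR115* on d10 against d0 gave -0.179 after rescaling and ran from -0.076 to 0.125 without a library (-0.017 being another change of sign), and on d20 against d0 it ran from -0.158 to 0.077 without a library, with 0.003 and 0.042 being sign changes too. *GPR115* on d10 and d20 against d7 and d15 gave -0.020 with a pseudocount of 10, -0.004 after rescaling, and -0.050 to 0.093 without a library, -0.005 included, and *ANO7* on d20 against d0 gave -0.006 after rescaling. The cause was not tested. Few reads limited *LCP1* and *APLN* on d15.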
